A study of Mus musculus with 39 samples.

Results

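Mammary tumours that carried 2 floxed copies of Lyn (Lynfl/fl) were compared with tumours that carried 2 wild-type copies (Lynwt/wt), among the tumours that the authors had put in PCA group 1/2. Members were the 12 Lynfl/fl tumours HOM.12, HOM.13, HOM.15, HOM.35, HOM.37, HOM.38, HOM.55, HOM.56, HOM.70, HOM.72, HOM.73 and HOM.74, and the 9 Lynwt/wt tumours WT.01, WT.02, WT.04, WT.39, WT.40, WT.41, WT.42, WT.59 and WT.60. These 21 tumours are members of a series of 39 tumours, each measured by RNAseq of 1 tumour piece. The members were thus selected on the authors' PCA group, a label drawn from the expression of the same libraries, and on the genotype. The PCA label held back the tumours that stood apart in expression, which were 1 Lynfl/fl tumour, 6 Lynfl/wt tumours and 3 Lynwt/wt tumours of PCA group 3/4.

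Every mouse was an adult female and carried BlgCre, Brca1flox/flox and p53 +/-, so Lynwt/wt tumours also arose after Cre-driven loss of Brca1 and with 1 germline copy of p53. Cre was driven by the β-lactoglobulin promoter, which is active in mammary epithelium, so the floxed alleles of leukocytes and stroma are not its target. All tumours were adenocarcinomas of no special type, and neoplastic cells, leukocytes and stroma were measured together. In such bulk samples fewer cells of a type and less RNA per cell cannot be told apart. The genotype is that of the mouse, and the share of cells that had recombined in each tumour was not analysed here. The 12 Lynfl/fl tumours came from 9 mice and the 9 Lynwt/wt tumours from 7 mice, and 5 of the 16 mice gave 2 tumours each. The 8 Lynfl/wt tumours of PCA group 1/2, from 8 mice, carried 1 floxed copy of Lyn and are given beside them. The first part of the database number of each tumour, 20 or 21, was read as the autopsy year. It was 20 for 4 Lynfl/fl and 3 Lynwt/wt tumours and 21 for 8 Lynfl/fl and 6 Lynwt/wt tumours.

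LYN is a kinase of the SRC family that is anchored to the inner face of the plasma membrane. In B cells and myeloid cells it phosphorylates activating receptors and also the inhibitory receptors that recruit phosphatases, so that it can raise or damp a signal. In mammary epithelium it is best known in luminal progenitors, where it acts below the receptor KIT, and in basal-like breast cancer.

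The floxed part of Lyn is exon 4, and its sequence is shown because its length decides what the deletion does to the reading frame. In GRCm38 it lies at chr4:3743197-3743302 on the plus strand, is 106 bases long and is coding. It is 1 base longer than a multiple of 3. Joining exon 3 to exon 5 therefore shifts the frame, which then ends after 88 codons in Lyn-201 (512 codons when intact) and after 67 codons in Lyn-202 (491 codons when intact). In both transcripts the shifted frame runs 29 codons past the junction. The line holds exon 4 in capitals, with the neighbouring 30 bases of exon 3 and exon 5 in lower case, from the GENCODE vM21 transcripts.
Lyn exon 4: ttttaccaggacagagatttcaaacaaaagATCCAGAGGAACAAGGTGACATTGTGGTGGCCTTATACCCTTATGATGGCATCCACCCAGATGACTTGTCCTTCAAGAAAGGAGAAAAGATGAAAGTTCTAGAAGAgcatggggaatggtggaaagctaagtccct
Exon 4 makes up 3.06% of Lyn-201 and 3.13% of Lyn-202. The counts cover the whole gene, so a transcript without exon 4 is still counted as Lyn, and a Lyn count checks the genotype label only in part.

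Lyn itself did not separate the genotypes. It had 25.6 CPM (median, 10.4 to 87.3) in Lynfl/fl tumours, 40.3 CPM (median, 25.4 to 61.01) in Lynfl/wt tumours and 44.7 CPM (median, 27.8 to 57.6) in Lynwt/wt tumours. These levels are CPM, counts divided by the library size after TMM scaling, given as the median with the lowest and highest tumour. They compare tumours for a gene, not genes with each other. Of the 12 Lynfl/fl tumours, 7 lay below the lowest Lynwt/wt tumour and HOM.70, at 87.3 CPM, lay above the highest. The other tumour of that mouse, HOM.56, had 15.5 CPM. The log2 fold change was -0.31 ± 0.31 (SE, n = 12 and 9 tumours, edgeR adjusted p = 0.753). With 1 tumour left out it lay between -0.54 (without HOM.70) and -0.22 (without HOM.35). An exact two-sided permutation test over the 293930 splits of the tumours gave a difference in mean log2 CPM of -0.52 (p = 0.124). With 1 mean per mouse the difference was -0.46 (9 and 7 mice, exact permutation p = 0.177). Within autopsy years it was -0.16 in year 20 (4 and 3 tumours, exact permutation p = 0.971) and -0.70 in year 21 (8 and 6 tumours, exact permutation p = 0.0929). The edgeR fit of the year-20 tumours alone gave a log2 fold change of 0.069, so the sign in that year differed between the methods. The sample labels that sort tumours by Lyn expression put 2 Lynfl/fl tumours in Lyn-high, 3 in Lyn-middle and 7 in Lyn-low, against 3, 2 and 4 Lynwt/wt tumours. The authors made these labels from the Lyn counts of the same libraries, so they are not a second measurement.

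The Brca1 and p53 alleles were the same in all genotypes. Brca1, the homologous recombination gene whose floxed exons are deleted by the same Cre, had 20.2 CPM (median, 9.31 to 28.9) in Lynfl/fl tumours, 18.7 CPM (median, 6.67 to 29.001) in Lynfl/wt tumours and 31.9 CPM (median, 7.05 to 51.3) in Lynwt/wt tumours. The estimate for Brca1 was a log2 fold change of -0.64 ± 0.27 (edgeR unadjusted p = 0.0264, adjusted p = 0.339), with 5 Lynwt/wt tumours above every Lynfl/fl tumour. Brca1 counts also cover the whole gene, so a transcript without the floxed exons can still be counted, and the level does not measure the deletion. Trp53, which encodes p53, had 19.7 CPM (median, 9.597 to 32.7) in Lynfl/fl tumours and 19.8 CPM (median, 14.2 to 27.7) in Lynwt/wt tumours. For Trp53 the log2 fold change was -0.02 ± 0.19 (edgeR adjusted p = 0.988), and its sign was not stable between settings.

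**Figure D1:**
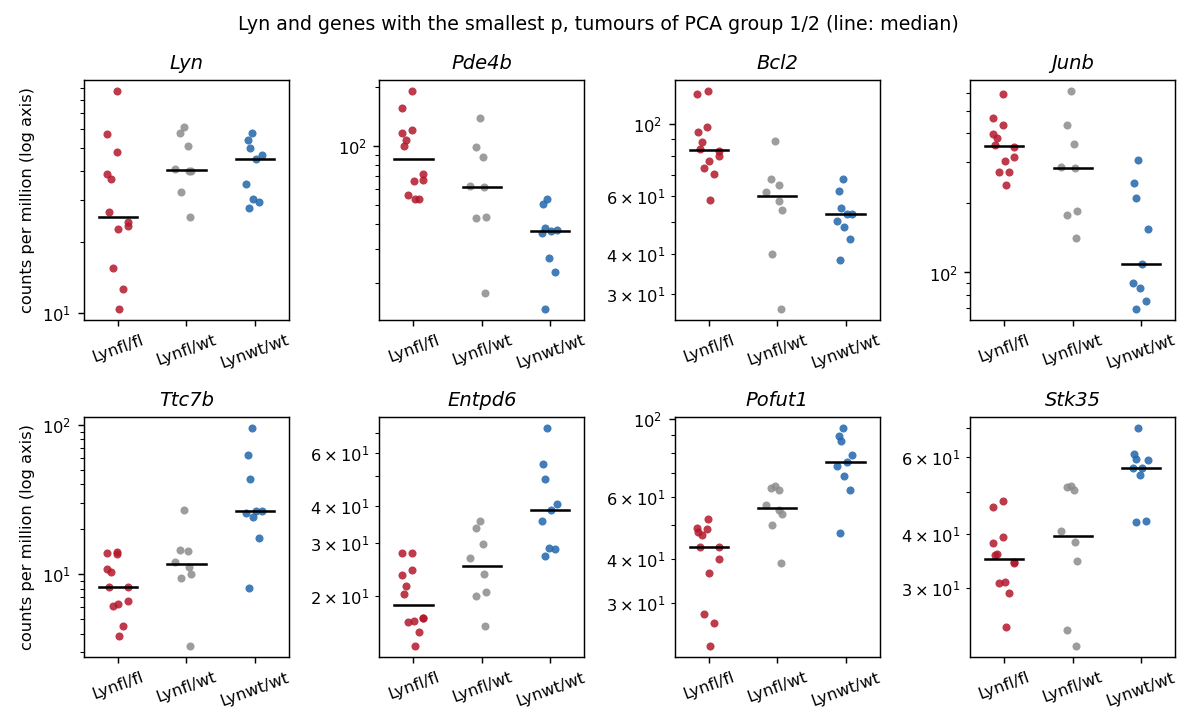
Level of Lyn and of 7 of the genes with the smallest p in each tumour of PCA group 1/2, in CPM on a log axis, by Lyn genotype (1 point per tumour, with 12 points for Lynfl/fl, 8 for Lynfl/wt and 9 for Lynwt/wt; the line is the median). Lynfl/fl and Lynwt/wt tumours overlap for every gene shown other than Pde4b, whose lowest Lynfl/fl tumour (53.8) is just above its highest Lynwt/wt tumour (53.7).

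Library depth was close between groups. The total count per library had a median of 61539026 in Lynfl/fl tumours (50555160 to 80787223), 61777656 in Lynfl/wt tumours (52420848 to 83122719) and 65107993 in Lynwt/wt tumours (57345771 to 82233029). Within the 21 tumours, 3 Lynwt/wt tumours stood apart on the second principal component of the 500 most variable genes: WT.41 at -70.5, WT.42 at -40.8 and WT.59 at -29.0, where the other 18 tumours lay between -11.5 and 22.6. WT.42 and WT.59 came from 1 mouse. The median Spearman correlation of WT.41, WT.42 and WT.59 with the other tumours was 0.894, 0.898 and 0.898, against 0.903 to 0.934 for the rest. Several results are also given without all 3 or without 1 of them. No pair of libraries held identical counts.

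No gene passed the test. Of 18184 genes tested, 0 (0%) reached an edgeR adjusted p under 0.05 with a 2-fold difference, and 0 did so without the fold threshold. The lowest adjusted p was 0.0705, and 35 genes (0.192%) had an adjusted p under 0.1, 14 of them higher and 21 lower in Lynfl/fl tumours. With 1 tumour left out the count of 35 became 0 (without HOM.13, HOM.15, HOM.35, HOM.72, HOM.73, HOM.74 or WT.60) to 106 (without WT.39), and it was 17 with DESeq2 size factors, 9 with autopsy year as a covariate and 0 in limma-voom with the mouse as a random effect. At an unadjusted p under 0.05, 2165 genes (11.9%) differed, 688 (3.78%) higher and 1477 (8.12%) lower in Lynfl/fl tumours. On simulated counts of the same 18184 genes, with 200 changed genes of a mean count of at least 100, this test recovered 26% of 2-fold changes and 82% of 4-fold changes. Only Pde4b had every Lynfl/fl tumour above every Lynwt/wt tumour (0.0055% of genes), and no gene had every Lynfl/fl tumour below every Lynwt/wt tumour (0%).

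The count of called genes depended on the tool and on which tumours were in the fit. DESeq2, which the submitters' processing notes name, called 136 genes higher (0.692% of 19661 genes with an adjusted p) and 166 lower (0.844%). Of these 302 genes, 266 were tested by edgeR and 247 had an edgeR unadjusted p under 0.05. Among the 166 lower genes, 28.9% were highest in WT.41 of the Lynwt/wt tumours, against 12.9% of all genes tested by edgeR. Adding the 8 Lynfl/wt tumours to the edgeR fit gave 3 higher and 11 lower calls, and all 39 tumours with the PCA group as a term gave 12 and 25. Between these fits 8 calls were shared, of which DESeq2 also called Ttc7b, Galc and Dpp7 (Galc and Dpp7 are named after their values were seen). Without WT.02, edgeR called Ttc7b, and without WT.04 it called Ttc7b, Ralgapa2 and Entpd6, all lower. Pofut1 had the same adjusted p as these 3 genes without WT.04 (0.0424) but did not reach the fold threshold (-0.94). With the counts of each mouse summed, edgeR called 1 gene, Synm, which encodes an intermediate filament protein (log2 fold change -2.44, adjusted p = 0.0483, also named after its values were seen). Without WT.41, WT.42 and WT.59 it called 0 genes, with 787 higher and 1112 lower at an unadjusted p under 0.05. DESeq2 and the fits with other tumours thus called genes that the edgeR test of the 21 tumours did not. DESeq2 had replaced outlying counts in 1942 genes, 569 of them among the genes tested by edgeR. The part of this replacement in its calls was not tested.

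**Figure D2:**
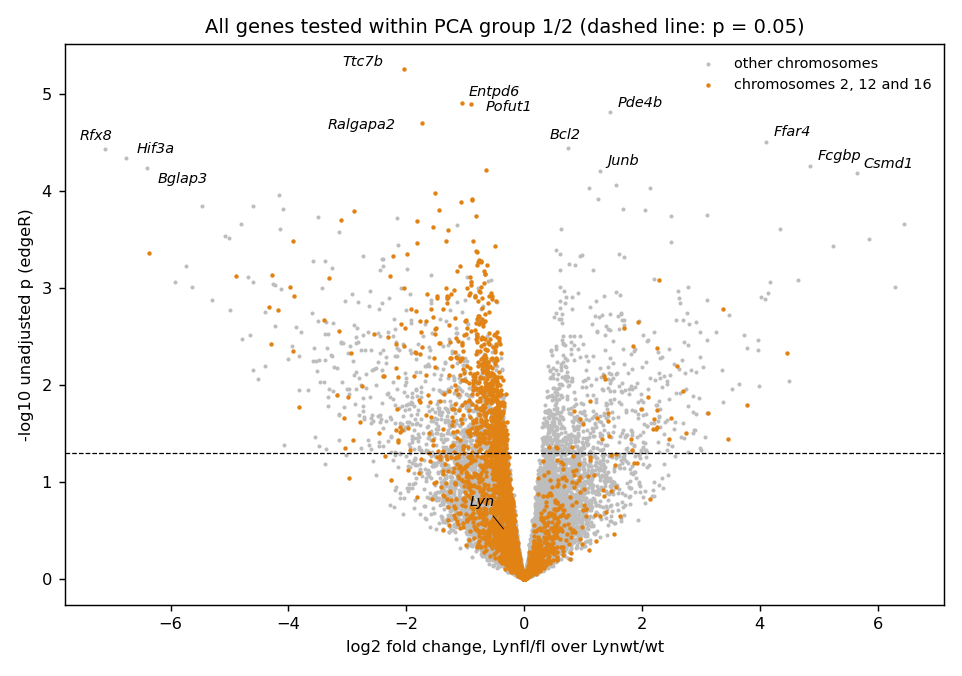
Log2 fold change, Lynfl/fl over Lynwt/wt, against -log10 of the unadjusted edgeR p for the 18184 genes tested, 1 point per gene, with genes on chromosomes 2, 12 and 16 in orange. The dashed line is p = 0.05; Lyn lies well under it, and the orange points lie mostly left of 0.

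Of the 10 lower genes with the smallest p, 6 lie on chromosome 2 or 12, and each of these was measured above 0 in every tumour. Ttc7b, at chr12:100300770-100520826 on the minus strand, is a scaffold of the complex that holds phosphatidylinositol 4-kinase at the plasma membrane. It had 8.21 CPM (median, 3.83 to 14.1) in Lynfl/fl tumours, 11.6 CPM (median, 3.29 to 26.9) in Lynfl/wt tumours and 26.4 CPM (median, 8.04 to 95.4) in Lynwt/wt tumours. Ttc7b differed by -2.04 ± 0.35 on the log2 scale (edgeR adjusted p = 0.0705) and 8 of 9 Lynwt/wt tumours lay above every Lynfl/fl tumour. Leaving out WT.41, the highest tumour, gave -1.72.

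Entpd6, at chr2:150749042-150771675, encodes a nucleoside diphosphatase of the secretory pathway. It had 18.6 CPM (median, 13.6 to 27.8) in Lynfl/fl tumours, 25.1 CPM (median, 15.9 to 35.6) in Lynfl/wt tumours and 38.6 CPM (median, 27.2 to 72.5) in Lynwt/wt tumours, with 10 of 12 Lynfl/fl tumours below the lowest Lynwt/wt tumour. The log2 fold change was -1.06 ± 0.19 (edgeR adjusted p = 0.0705). Pofut1, at chr2:153241533-153270247, adds O-linked fucose to the extracellular repeats of Notch receptors. It had 43.2 CPM (median, 22.6 to 51.9) in Lynfl/fl tumours, 55.9 CPM (median, 38.96 to 64.2) in Lynfl/wt tumours and 75.3 CPM (median, 47.4 to 94.03) in Lynwt/wt tumours (log2 fold change -0.900 ± 0.16, edgeR adjusted p = 0.0705). The Lynfl/wt tumours lay between the other groups in median for each of these genes. As the genes were picked for the difference between those groups, this order is no separate evidence of an effect of 1 floxed copy.

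Ralgapa2 encodes the catalytic part of a complex that switches off RAL GTPases. Its level was 23.7 CPM (median, 13.3 to 35.6) in Lynfl/fl tumours and 44.3 CPM (median, 24.8 to 237) in Lynwt/wt tumours. On the log2 scale Ralgapa2 differed by -1.74 ± 0.32 (edgeR adjusted p = 0.0736) and -1.34 without WT.41, which held the 237 CPM. Stk35, a nuclear serine/threonine kinase, had the smallest SE of these genes. It had 35.1 CPM (median, 24.5 to 47.5) in Lynfl/fl tumours and 56.6 CPM (median, 42.7 to 69.9) in Lynwt/wt tumours (log2 fold change -0.65 ± 0.13, edgeR adjusted p = 0.0859). Pole2, an accessory subunit of DNA polymerase epsilon, had 9.03 CPM (median, 4.28 to 16.96) in Lynfl/fl tumours and 24.3 CPM (median, 9.303 to 65.8) in Lynwt/wt tumours (log2 fold change -1.51 ± 0.32, edgeR adjusted p = 0.0985). Entpd6, Pofut1, Ralgapa2 and Stk35 are on chromosome 2 and Ttc7b and Pole2 on chromosome 12.

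For other genes on the lower side the highest levels were those of 1 or a few Lynwt/wt tumours. Hif3a, a HIF alpha subunit, had 71.7 CPM in WT.40 and at most 0.557 CPM in the other Lynwt/wt tumours, against 0.0706 CPM (median, 0 to 0.161) in Lynfl/fl tumours. Its log2 fold change of -6.75 ± 1.34 (edgeR adjusted p = 0.0859) was -1.73 without WT.40. Capns2, which encodes a small calpain subunit, had 104 CPM in WT.41 and at most 0.908 CPM in the other Lynwt/wt tumours, against 0.265 CPM (median, 0 to 0.5603) in Lynfl/fl tumours. The log2 fold change of -5.46 ± 1.198 was -0.96 without WT.41. Creb3l1, which encodes a membrane-bound factor released from the endoplasmic reticulum to act on transcription, had 372 CPM in WT.41, at most 43.2 CPM in the other Lynwt/wt tumours and 6.77 CPM (median, 0.766 to 17.1) in Lynfl/fl tumours. Its log2 fold change of -3.12 ± 0.703 (edgeR adjusted p = 0.1) was -1.43 without WT.41. For these 3 genes a single tumour thus set most of the size of the difference.

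For other genes more than 1 Lynwt/wt tumour was high. Rfx8, a gene of the RFX transcription factor family, had 191 CPM in WT.01 and 143 CPM in WT.41, at most 5.16 CPM in the other Lynwt/wt tumours and 0.204 CPM (median, 0 to 0.778) in Lynfl/fl tumours (log2 fold change -7.12 ± 1.39, edgeR adjusted p = 0.0853). Bglap3, an osteocalcin-related gene with near-identical neighbours that may share its reads, had 1239 CPM in WT.42 and 166 CPM in WT.39, at most 4.25 CPM in the other Lynwt/wt tumours and 1.41 CPM (median, 0.4797 to 5.103) in Lynfl/fl tumours. Its log2 fold change was -6.399 ± 1.300, and -3.59 without WT.42. Mcoln3, a cation channel of endosomes and lysosomes, had 260 CPM in WT.59, with 194 and 156 CPM in the next 2 Lynwt/wt tumours and a Lynwt/wt median of 2.52 CPM. Lynfl/fl tumours had 0.3996 CPM (median, 0 to 8.73) of Mcoln3 (log2 fold change -5.73 ± 1.44, edgeR adjusted p = 0.13), and without WT.41, WT.42 and WT.59 the value for Mcoln3 was -0.465. Ppp1r14c, an inhibitor of protein phosphatase 1, had 69.2 CPM in WT.04 and 46.9 CPM in the next Lynwt/wt tumour, against 0.338 CPM (median, 0 to 1.69) in Lynfl/fl tumours (log2 fold change -4.805 ± 1.09). Angptl1, a secreted angiopoietin-like protein, had 0.261 CPM (median, 0 to 0.893) in Lynfl/fl tumours and 2.37 CPM (median, 0.0556 to 21.96) in Lynwt/wt tumours (log2 fold change -4.16 ± 0.89, edgeR adjusted p = 0.0985), 5 of 9 Lynwt/wt tumours lying above every Lynfl/fl tumour. RP23-154H8.1, a locus for which the sources used here give no role, had 0.545 CPM (median, 0.2203 to 1.23) in Lynfl/fl tumours and 0.541 CPM (median, 0.283 to 8.93) in Lynwt/wt tumours. The medians were close, and the log2 fold change of -1.86 ± 0.59 went with the highest 2 Lynwt/wt tumours (8.93 and 5.24 CPM) and was -1.02 without WT.04.

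**Figure D3:**
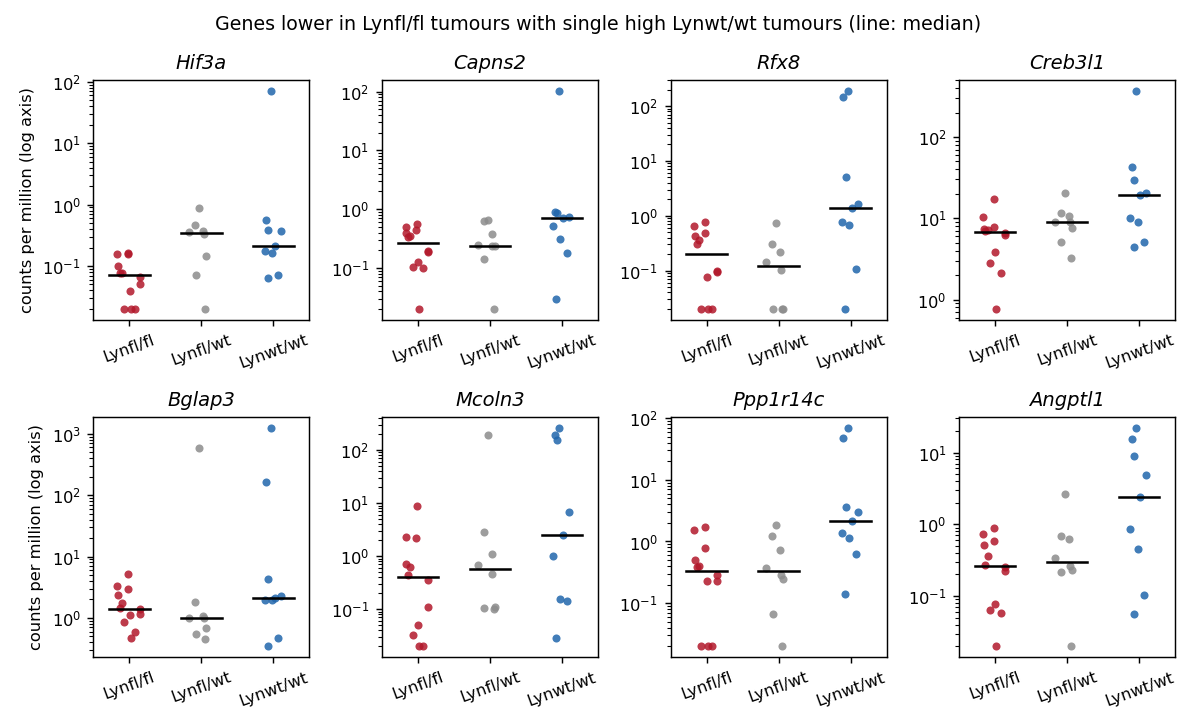
Level in each tumour of 8 genes that were lower in Lynfl/fl tumours, in CPM on a log axis, by genotype (1 point per tumour, the line is the median, values under 0.02 are drawn at 0.02). From 1 to 3 Lynwt/wt tumours lie far above the rest for most genes, as WT.40 does for Hif3a (71.7) and WT.41 for Capns2 (104), and single Lynfl/wt tumours are also high for Bglap3 (582) and Mcoln3 (189).

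On the higher side, signalling genes expressed in every tumour stood beside genes near the detection limit in Lynwt/wt tumours. Pde4b, at chr4:102087543-102607259, encodes a phosphodiesterase that breaks down cyclic AMP. It had 86.03 CPM (median, 53.8 to 191) in Lynfl/fl tumours, 61.9 CPM (median, 17.8 to 139) in Lynfl/wt tumours and 36.9 CPM (median, 14.8 to 53.7) in Lynwt/wt tumours. Pde4b differed by 1.46 ± 0.27 on the log2 scale (edgeR adjusted p = 0.0705), 0.75 in tumours of year 20 and 1.81 in those of year 21. Bcl2, at chr1:106538178-106714274, encodes the founding inhibitor of the mitochondrial pathway of apoptosis. Its level was 83.1 CPM (median, 58.7 to 127) in Lynfl/fl tumours, 59.97 CPM (median, 27.1 to 88.6) in Lynfl/wt tumours and 52.9 CPM (median, 38.3 to 67.7) in Lynwt/wt tumours, and 11 of 12 Lynfl/fl tumours lay above every Lynwt/wt tumour. For Bcl2 the log2 fold change was 0.74 ± 0.15 (edgeR adjusted p = 0.0853), the smallest of the 10 leading higher genes, and lay between 0.69 and 0.80 with each tumour left out in turn.

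Junb, at chr8:84974484-84978718, encodes an AP-1 subunit that is induced within minutes of growth factor or stress signals. Lynfl/fl tumours had 351 CPM (median, 239.6 to 589.9), Lynfl/wt tumours 284 CPM (median, 141 to 612) and Lynwt/wt tumours 109 CPM (median, 69.5 to 306) of it. The log2 fold change was 1.29 ± 0.26 (edgeR adjusted p = 0.0859), and 8 of 12 Lynfl/fl tumours lay above every Lynwt/wt tumour. Cx3cl1, the membrane-bound chemokine fractalkine, had 189 CPM (median, 113 to 700.4) in Lynfl/fl tumours and 80.6 CPM (median, 29.05 to 133) in Lynwt/wt tumours (log2 fold change 1.56 ± 0.33, edgeR adjusted p = 0.0985). Il7, a survival cytokine of lymphocytes, had 5.24 CPM (median, 1.78 to 18.2) in Lynfl/fl tumours and 1.14 CPM (median, 0.613 to 2.59) in Lynwt/wt tumours (log2 fold change 2.13 ± 0.45). Pam, the enzyme that amidates secreted peptides, had 245 CPM (median, 102 to 402) in Lynfl/fl tumours and 114 CPM (median, 59.99 to 177) in Lynwt/wt tumours (log2 fold change 1.09 ± 0.23). Cdc42ep3, an effector of the GTPase CDC42, had 65.2 CPM (median, 26.1 to 134) in Lynfl/fl tumours and 27.3 CPM (median, 11.4 to 45.6) in Lynwt/wt tumours (log2 fold change 1.24 ± 0.27). For these 4 genes 8 to 10 of the 12 Lynfl/fl tumours lay above every Lynwt/wt tumour, and the edgeR adjusted p was 0.0985 each.

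Ffar4, Fcgbp and Csmd1 had the largest fold changes of the leading higher genes. Ffar4, a receptor for long-chain fatty acids, had 1.27 CPM (median, 0.367 to 10.1) in Lynfl/fl tumours, 1.04 CPM (median, 0.0357 to 25.8) in Lynfl/wt tumours and 0.108 CPM (median, 0 to 0.381) in Lynwt/wt tumours (log2 fold change 4.103 ± 0.79, edgeR adjusted p = 0.0853). Fcgbp, a mucus protein that binds the Fc part of IgG, spread widely: 79.1 CPM (median, 3.63 to 1298) in Lynfl/fl tumours, 229 CPM (median, 0.576 to 1363) in Lynfl/wt tumours and 5.78 CPM (median, 0.409 to 14.5) in Lynwt/wt tumours. On the log2 scale Fcgbp differed by 4.86 ± 0.98 (edgeR adjusted p = 0.0859). Csmd1, a large membrane protein with complement-regulating domains, had 11.8 CPM (median, 0 to 68.8) in Lynfl/fl tumours and 0.117 CPM (median, 0 to 1.89) in Lynwt/wt tumours (log2 fold change 5.64 ± 1.16, edgeR adjusted p = 0.0859), and 10 of 12 Lynfl/fl tumours lay above every Lynwt/wt tumour. The low-count filter keeps a gene that reaches its minimum in enough tumours, whichever their genotype. Ffar4 and Csmd1 were near 0 in most Lynwt/wt tumours and may have been tested only through the Lynfl/fl tumours. Their p-values and counts of tumours are therefore not separate from that filter.

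Rasd1, a small G protein that is induced by glucocorticoids, had 35.9 CPM (median, 4.66 to 139) in Lynfl/fl tumours, 7.74 CPM (median, 2.58 to 26.8) in Lynfl/wt tumours and 5.91 CPM (median, 0.318 to 15.4) in Lynwt/wt tumours. The estimate for Rasd1 was a log2 fold change of 2.63 ± 0.71 (edgeR adjusted p = 0.141), with 9 of 12 Lynfl/fl tumours above every Lynwt/wt tumour, and was 0.98 in tumours of year 20 and 3.28 in those of year 21. The interaction of genotype and year had an edgeR adjusted p of 0.999 for Rasd1, which was also the lowest over all genes, with 0 of 18184 genes under 0.05 and 719 at an unadjusted p under 0.05.

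The Lynfl/wt tumours of PCA group 1/2 gave 0 calls against either group in an edgeR fit of the 3 genotypes, which share tumours between comparisons. At an unadjusted p under 0.05, 1707 of 19259 genes (8.86%) differed between Lynfl/wt and Lynwt/wt tumours (lowest adjusted p = 0.266) and 711 (3.69%) between Lynfl/fl and Lynfl/wt tumours (lowest adjusted p = 0.488). For Lyn the log2 fold change was 0.05 between Lynfl/wt and Lynwt/wt tumours and -0.37 between Lynfl/fl and Lynfl/wt tumours. The same values were -1.53 and -0.51 for Ttc7b, 0.97 and 0.49 for Pde4b, 1.05 and 0.24 for Junb, and 6.17 and -1.32 for Fcgbp. Bcl2 and Rasd1 had the larger value between Lynfl/fl and Lynfl/wt tumours, with 0.14 and 0.61 for Bcl2 and 0.71 and 1.92 for Rasd1.

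The tumours that the rule held back had other levels of several of these genes. Lyn was 35.8 CPM in the Lynfl/fl tumour HOM.54, against 178, 73.3 and 62.0 CPM in the Lynwt/wt tumours WT.03, WT.20 and WT.21. Ttc7b, at 13.8 CPM in HOM.54 and 15.9, 9.92 and 7.90 CPM in those Lynwt/wt tumours, was below the Lynwt/wt median of PCA group 1/2 in each. Pde4b was 71.4 CPM in HOM.54 and 83.7, 115 and 52.6 CPM in the Lynwt/wt tumours, and Fcgbp 13323 CPM in HOM.54 and 366, 454 and 3816 CPM in the Lynwt/wt tumours. With these 4 tumours added, the log2 fold change of Lyn was -0.76 (edgeR adjusted p = 0.420) and the lowest adjusted p over all genes was 0.178.

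Genes lower in Lynfl/fl tumours were unevenly spread over the chromosomes. On chromosomes 2, 12 and 16 together, 685 of 2551 genes (26.9%) were lower and 39 (1.53%) higher at an unadjusted edgeR p under 0.05, against 792 (5.07%) and 649 (4.15%) of the other 15633 genes. The median log2 fold change was -0.34 on these 3 chromosomes and -0.01 over the other genes. It was -0.45 on chromosome 12 (196 of 634 genes lower), -0.35 on chromosome 16 (156 of 530 lower) and -0.30 on chromosome 2 (333 of 1387 lower). Chromosome 8 had the highest median, 0.16, with 112 of 981 genes higher. Genes of a chromosome were measured in the same tumours and are not independent, so these counts are a description. The 3 chromosomes were picked for these values.

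A level per tumour was then taken for each chromosome: the median over its genes of the log2 CPM relative to the median tumour, minus the same median over all chromosomes. For chromosome 2 the Lynfl/fl tumours lay between -0.40 and 0.07 with a median of -0.03, the Lynfl/wt tumours between -0.47 and 0.099 with a median of -0.08, and the Lynwt/wt tumours between -0.05 and 0.55 with a median of 0.09, WT.60 being highest. The difference was -0.25 (exact two-sided permutation p = 0.00118, adjusted over 20 chromosomes 0.0237), and all 12 Lynfl/fl tumours lay below the Lynwt/wt median. With 1 mean per mouse it was -0.28 (exact permutation p = 0.000612, adjusted p = 0.0122). The adjusted p over tumours was 0.0724 without WT.60 and 0.00968 to 0.0464 without each other tumour, and 0.116 without WT.41, WT.42 and WT.59 (difference -0.24, exact permutation p = 0.00846). In PCA group 3/4 the level was -0.06 in the Lynfl/fl tumour HOM.54 and -0.25, -0.32 and -0.15 in the Lynwt/wt tumours WT.03, WT.20 and WT.21, all below the lowest Lynwt/wt tumour of PCA group 1/2. This test was chosen after the data were seen.

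The other chromosomes did not pass that adjustment. For chromosome 12 the level was -0.37 to 0.27 in Lynfl/fl tumours, -0.36 to 0.03 in Lynfl/wt tumours and -0.24 to 1.07 in Lynwt/wt tumours. The Lynwt/wt tumours split into WT.42 (1.07), WT.60 (0.75), WT.04 and WT.41 (0.56 each) and WT.59 (0.38), and the other 4, between -0.24 and -0.12. The difference was -0.38 (exact permutation p = 0.0160, adjusted p = 0.106; by mouse adjusted p = 0.256). For chromosome 16 the level was -0.39 to 0.16 in Lynfl/fl tumours and -0.37 to 0.41 in Lynwt/wt tumours, a difference of -0.30 (exact permutation p = 0.00974, adjusted p = 0.0974; by mouse adjusted p = 0.256). For chromosome 8 it was -0.16 to 0.40 in Lynfl/fl tumours and -0.48 to 0.29 in Lynwt/wt tumours, a difference of 0.22 (exact permutation p = 0.0265, adjusted p = 0.107; by mouse adjusted p = 0.353). Chromosome 1 was close to it, with a difference of 0.13 (exact permutation p = 0.0267, adjusted p = 0.107). Chromosome 9 had a difference of 0.18 (exact permutation p = 0.0385, adjusted p = 0.128). With 1 tumour left out the adjusted p passed 0.05 for chromosome 12 without WT.39, chromosome 16 without WT.39 or WT.42 and chromosome 8 without WT.41. Without WT.41, WT.42 and WT.59 the difference for chromosome 12 was -0.20 (exact permutation p = 0.173, adjusted p = 0.432) and its median log2 fold change -0.23. In that setting chromosome 16 had a difference of -0.33 (exact permutation p = 0.0116) and an adjusted p of 0.116, the same as chromosome 2. The medians of chromosomes 2, 8, 12 and 16 kept their sign in either autopsy year, with each tumour left out in turn, without these 3 tumours and with the 4 tumours of PCA group 3/4 added.

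Within these chromosomes the shift was widest in some parts. In windows of 20 Mb, 84 of 169 genes at 100 to 120 Mb of chromosome 12 were lower at an unadjusted p under 0.05, with a median log2 fold change of -0.65, and 8 of 74 at 0 to 20 Mb (-0.23). On chromosome 2 the values were 85 of 194 genes at 120 to 140 Mb (-0.44) and 1 of 47 at 180 to 200 Mb (0.02). On chromosome 8, 45 of 191 genes at 80 to 100 Mb were higher (0.32) and 2 of 120 at 20 to 40 Mb (-0.02). Ttc7b lies in the first of these windows, and Entpd6, Pofut1, Ralgapa2 and Stk35 lie between 120 and 160 Mb of chromosome 2. Junb and Cx3cl1 lie between 80 and 100 Mb of chromosome 8. DNA was not analysed here.

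**Figure D4:**
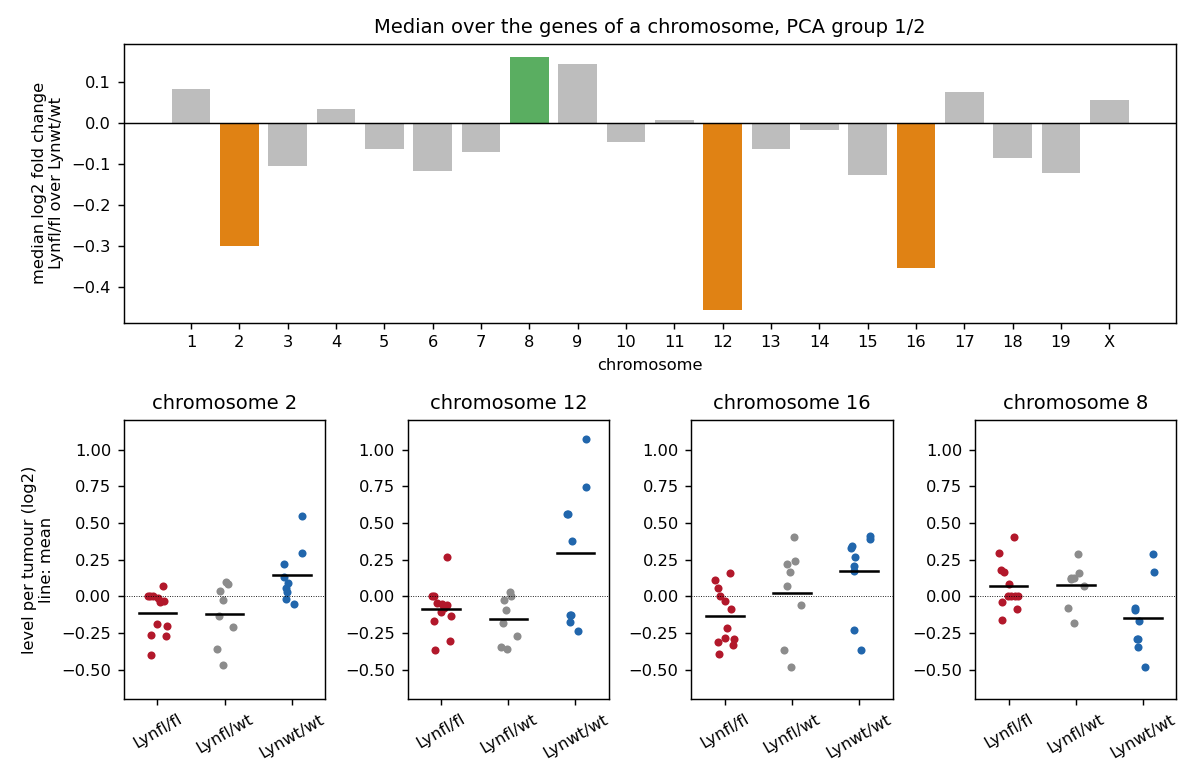
Upper panel, the median log2 fold change, Lynfl/fl over Lynwt/wt, of the genes of each chromosome; lower panels, the level per tumour (log2, relative to all chromosomes) of chromosomes 2, 12, 16 and 8 by genotype (1 point per tumour, the line is the mean). Chromosomes 2, 12 and 16 have the lowest medians (-0.30, -0.45 and -0.35), and on chromosome 12 the high Lynwt/wt tumours reach 1.07.

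In the gene lists, no member passed the test. The 39 lists hold 486 entries, some genes standing in several lists. Of these, 447 were tested, and 47 were higher and 37 lower in Lynfl/fl tumours at an unadjusted edgeR p under 0.05. Over all genes these shares were 3.78% and 8.12%, and the median log2 fold change was -0.05. Counts of members below use the same unadjusted threshold. Members near 0 in most Lynwt/wt tumours, such as Blk, Sp7 and Rspo1, may have passed the low-count filter only through the Lynfl/fl tumours.

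The SRC family had 9 members tested, of which 2 were higher and 2 lower (median 0.32). Src, the founding member, had 151 CPM (median, 99.2 to 308) in Lynfl/fl tumours and 221 CPM (median, 174 to 351) in Lynwt/wt tumours, with 11 of 12 Lynfl/fl tumours below the lowest Lynwt/wt tumour (log2 fold change -0.495 ± 0.17, edgeR adjusted p = 0.235). Src lies on chromosome 2. Frk, an epithelial member, had 32.9 CPM (median, 17.8 to 53.9) in Lynfl/fl tumours and 19.6 CPM (median, 9.08 to 27.96) in Lynwt/wt tumours (log2 fold change 0.73 ± 0.24, edgeR adjusted p = 0.206). Blk, the B-cell member, had 0.226 CPM (median, 0.0635 to 5.41) in Lynfl/fl tumours and 0.0371 CPM (median, 0 to 0.352) in Lynwt/wt tumours (log2 fold change 2.78 ± 0.86), with HOM.70 highest. Yes1, the widely expressed relative of Src, was the other lower member (-0.48). Of 23 partners and regulators of LYN, 0 were higher and 0 lower (median 0.09). The smallest p among them was that of Plcg2, a phospholipase of B-cell receptor signalling, with 96.4 CPM (median, 35.5 to 185) in Lynfl/fl tumours, 67.6 CPM (median, 26.4 to 103) in Lynwt/wt tumours and a log2 fold change of 0.59 ± 0.303 (edgeR unadjusted p = 0.0634).

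Immediate-early genes, which encode transcription factors and RNA regulators induced without new protein, had 8 of 15 members higher and 0 lower (median 0.59), against 3.78% of all genes higher. Their summed level was 1924 CPM (median, 1234 to 2215) in Lynfl/fl tumours and 1384 CPM (median, 937 to 1669.8) in Lynwt/wt tumours. Beside Junb, Zfp36, which encodes an RNA-destabilising protein, had 47.8 CPM (median, 33.5 to 59.2) in Lynfl/fl tumours and 30.8 CPM (median, 27.2 to 43.2) in Lynwt/wt tumours (log2 fold change 0.54 ± 0.13, edgeR adjusted p = 0.126). Egr3, a zinc finger factor, had 15.2 CPM (median, 4.92 to 29.99) in Lynfl/fl tumours and 4.28 CPM (median, 1.49 to 11.9) in Lynwt/wt tumours (log2 fold change 1.56 ± 0.42, edgeR adjusted p = 0.141). The other higher members were Ier2, Btg2, Atf3, Egr2 and Egr1 (0.59 to 0.87), and the other 7 members lay between -0.09 and 0.66. The list median was 0.67 in tumours of year 20 and 0.56 in those of year 21.

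Genes of homologous recombination had 4 of 16 members lower and 0 higher (median -0.15). Brca1 and the checkpoint kinase gene Chek2 were among the lower members, as was Fancd2, of the crosslink repair pathway, which had 11.3 CPM (median, 6.65 to 23.001) in Lynfl/fl tumours and 17.5 CPM (median, 11.4 to 34.8) in Lynwt/wt tumours (log2 fold change -0.601 ± 0.26). Of 20 proliferation genes 3 were lower and 0 higher (median -0.21). They were the polymerase clamp Pcna (log2 fold change -0.49 ± 0.16), the spindle checkpoint kinase Bub1 (-0.63 ± 0.21) and the cell cycle transcription factor E2f1 (-0.49 ± 0.22, and -0.127 without WT.41, WT.42 and WT.59). These 3 genes lie on chromosome 2. The phosphatidylinositol 4-kinase complex had 2 of 10 members lower (median -0.19), which were Ttc7b and the membrane anchor Efr3b (log2 fold change -1.22 ± 0.51, and -0.54 without WT.01), both on chromosome 12. Its kinase Pi4ka had -0.35 ± 0.19 (edgeR unadjusted p = 0.0778). Ttc7b had the smallest p of all genes tested, and the list was chosen with earlier results of these data known. The count for this complex is therefore not separate from the result for Ttc7b.

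Epithelial lists had some higher members. Luminal genes had 3 of 15 higher and 0 lower (median 0.40). Foxa1, a pioneer factor of luminal cells, had 7.25 CPM (median, 1.15 to 47.1) in Lynfl/fl tumours and 1.58 CPM (median, 0 to 6.66) in Lynwt/wt tumours (log2 fold change 2.59 ± 0.86, edgeR adjusted p = 0.217). It lies on chromosome 12, where 83.8% of the genes tested had a negative log2 fold change. Aldh1a3, a marker of luminal progenitors, had a log2 fold change of 1.73 ± 0.68, and Esr1, the oestrogen receptor, 0.998 ± 0.47. Basal and myoepithelial genes had 3 of 13 higher and 1 lower (median 0.02). The basal keratin Krt5 had 4.48 CPM (median, 0.0326 to 15.2) in Lynfl/fl tumours and 0.4401 CPM (median, 0 to 2.2998) in Lynwt/wt tumours (log2 fold change 2.91 ± 0.84). Lgr5, a receptor for R-spondins, had 1.5003 CPM (median, 0 to 116) in Lynfl/fl tumours and 0.478 CPM (median, 0.111 to 4.31) in Lynwt/wt tumours, and its log2 fold change of 3.52 ± 1.27 was 0.97 without HOM.56. Mylk, the contractile light chain kinase, was the lower member (log2 fold change -0.82 ± 0.35, and -0.42 without WT.02).

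Of 11 milk protein genes 2 were higher and 1 lower (median 0.18). Csn3, kappa-casein, had 913 CPM (median, 98.1 to 2132) in Lynfl/fl tumours and 179 CPM (median, 28.2 to 1187) in Lynwt/wt tumours (log2 fold change 1.47 ± 0.65, edgeR adjusted p = 0.371). Mfge8, of the milk fat globule, had a log2 fold change of 0.999 ± 0.43, and 0.52 without HOM.72. Btn1a1, another globule protein, had -2.97 ± 1.09, with 99.0 CPM in WT.42 and 46.3 CPM in the next Lynwt/wt tumour against at most 10.1 CPM in Lynfl/fl tumours. Without WT.41, WT.42 and WT.59 the log2 fold change of Btn1a1 was 0.634.

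Genes of bone and mineralised matrix had 4 of 8 members higher and 0 lower (median 1.26). Dmp1, a dentin and bone matrix phosphoprotein, had 6.93 CPM (median, 0.817 to 358) in Lynfl/fl tumours, 4.34 CPM (median, 0.728 to 12.8) in Lynfl/wt tumours and 0.945 CPM (median, 0.0354 to 7.05) in Lynwt/wt tumours (log2 fold change 4.65 ± 1.21, edgeR adjusted p = 0.141). HOM.72 and HOM.73, at 260 CPM, carried its high end. Kazald1, a secreted protein related to IGF-binding proteins and known from bone, had 12.1 CPM (median, 3.79 to 58.6) in Lynfl/fl tumours, 7.34 CPM (median, 1.62 to 63.1) in Lynfl/wt tumours and 2.95 CPM (median, 1.03 to 8.12) in Lynwt/wt tumours (log2 fold change 2.498 ± 0.56, edgeR adjusted p = 0.0991). Sp7, the osteoblast transcription factor, had 0.575 CPM (median, 0 to 2.18) in Lynfl/fl tumours and 0.109 CPM (median, 0 to 0.352) in Lynwt/wt tumours, near the detection limit, with 11 of 12 Lynfl/fl tumours above every Lynwt/wt tumour (log2 fold change 2.42 ± 0.86). Spp1, which encodes osteopontin, was the other higher member (1.603). Dmp1 and Kazald1 were put in this list with their values known.

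Of 15 fibroblast and collagen genes 14 had a negative log2 fold change (median -0.86), yet 0 were lower at the threshold. Col5a1, a fibrillar collagen, had 59.3 CPM (median, 12.6 to 297) in Lynfl/fl tumours and 178 CPM (median, 18.8 to 398) in Lynwt/wt tumours (log2 fold change -1.02 ± 0.49, edgeR unadjusted p = 0.0502). The microfibrillar collagen Col6a1 had a log2 fold change of -1.001 ± 0.49 (edgeR unadjusted p = 0.0539). Pdgfra, the receptor for platelet-derived growth factor, was the exception, with 39.7 CPM (median, 11.3 to 70.3) in Lynfl/fl tumours and 13.2 CPM (median, 3.81 to 46.7) in Lynwt/wt tumours (log2 fold change 0.98 ± 0.45, edgeR adjusted p = 0.385, and 0.552 without WT.41, WT.42 and WT.59). The summed level of the list was 1922 CPM (median, 334 to 10687) in Lynfl/fl tumours and 4479 CPM (median, 607 to 10786) in Lynwt/wt tumours, so the ranges overlapped almost fully.

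Wnt pathway genes had 3 of 19 higher and 2 lower (median -0.04). Rspo1, a secreted amplifier of Wnt signals, had 1.77 CPM (median, 0.102 to 23.1) in Lynfl/fl tumours and 0.148 CPM (median, 0 to 1.17) in Lynwt/wt tumours, with 8 of 12 Lynfl/fl tumours above every Lynwt/wt tumour (log2 fold change 4.01 ± 1.09, edgeR adjusted p = 0.141). In PCA group 3/4 it was 15.9 CPM in HOM.54 and 306, 47.7 and 116 CPM in the Lynwt/wt tumours, and its log2 fold change over the 25 tumours of both PCA groups was -2.58. The Wnt receptor Fzd7 had 447 CPM (median, 185 to 795) in Lynfl/fl tumours and 289 CPM (median, 205 to 369) in Lynwt/wt tumours (log2 fold change 0.66 ± 0.203, edgeR adjusted p = 0.186). The lower members were the secreted Wnt inhibitors Sfrp2 (-1.86) and Notum (-2.44). Receptor tyrosine kinases and ligands had 1 of 15 higher and 2 lower (median -0.07). Met, the receptor for hepatocyte growth factor, had 4927 CPM in WT.04, against 111 CPM (median, 34.9 to 508) in Lynfl/fl tumours and at most 177 CPM in the other Lynwt/wt tumours. The value of -2.22 ± 0.83 on the log2 scale was 0.55 without WT.04. Fgfr2, a fibroblast growth factor receptor, had 176 CPM in WT.42, at most 31.7 CPM in the other Lynwt/wt tumours and 2.998 CPM (median, 0 to 8.25) in Lynfl/fl tumours (log2 fold change -2.95 ± 0.92, and -1.44 without WT.42). Its relative Fgfr3 had 25.5 CPM (median, 1.81 to 103) in Lynfl/fl tumours and 3.76 CPM (median, 0.461 to 58.7) in Lynwt/wt tumours (log2 fold change 1.83 ± 0.79, and 3.08 without WT.01).

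Most immune lists had positive medians with few members past the threshold. Neutrophil genes were the exception, with 4 of 5 members negative, 0 past the threshold and a median of -0.22. Interferon response genes had 2 of 16 higher (median 0.64, 0.12 in tumours of year 20 and 1.09 in those of year 21), led by Oas1a, an antiviral enzyme that senses double-stranded RNA (log2 fold change 1.002 ± 0.46), and the antiviral Ifit2 (0.71 ± 0.33). NF-kB genes had 2 of 15 higher (median 0.42). Traf1, an adaptor of TNF receptors, had 25.4 CPM (median, 4.61 to 71.4) in Lynfl/fl tumours and 8.598 CPM (median, 1.57 to 24.6) in Lynwt/wt tumours (log2 fold change 1.38 ± 0.48). The adhesion molecule Icam1 had 45.2 CPM (median, 5.82 to 131) in Lynfl/fl tumours and 17.97 CPM (median, 6.92 to 43.3) in Lynwt/wt tumours (log2 fold change 1.22 ± 0.42). MHC class II genes had 2 of 9 higher and all 9 positive (median 0.88). The higher members were H2-Ob (log2 fold change 1.09 ± 0.499, and 0.60 without HOM.70) and Ciita, the class II transactivator, and H2-Aa, an antigen-presenting chain, had 392 CPM (median, 105 to 1707) in Lynfl/fl tumours and 207 CPM (median, 87.2 to 533) in Lynwt/wt tumours. Dendritic cell genes had 2 of 9 higher (median 0.85), among them Zbtb46, a factor of classical dendritic cells, with 7.36 CPM (median, 1.32 to 15.4) in Lynfl/fl tumours and 3.87 CPM (median, 1.698 to 6.88) in Lynwt/wt tumours. T-cell genes had 1 of 14 higher (median 0.71), the surface molecule Cd5, with 0.8498 CPM (median, 0.129 to 10.04) in Lynfl/fl tumours and 0.477 CPM (median, 0.111 to 1.01) in Lynwt/wt tumours (log2 fold change 1.81 ± 0.65, and 1.06 without HOM.74). In summed level HOM.70 was the highest Lynfl/fl tumour for MHC class II and dendritic cell genes and HOM.12 for T-cell genes, and WT.39, WT.39 and WT.41 were the highest Lynwt/wt tumours.

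Several B-cell and plasma-cell genes rested on HOM.70. B-cell genes had 2 of 7 higher (median 1.00), Blk and the chemokine receptor gene Cxcr5 (1.93, and 0.79 without HOM.70), and their summed level was 5.36 CPM (median, 1.92 to 90.1) in Lynfl/fl tumours and 6.44 CPM (median, 2.67 to 12.1) in Lynwt/wt tumours. Cd79a, a chain of the B-cell receptor complex, had 12.9 CPM in HOM.70 and at most 0.698 CPM in the other Lynfl/fl tumours. Its log2 fold change was 1.97 ± 1.18, and -0.64 without HOM.70. Blk and the plasma-cell gene Mzb1 lay near the filter on low counts and were not tested without HOM.70, nor without several other Lynfl/fl tumours. Plasma-cell genes had 4 of 8 higher (median 1.65), with a summed level of 329 CPM (median, 137 to 1419) in Lynfl/fl tumours and 154 CPM (median, 77.9 to 1287) in Lynwt/wt tumours. Ighm, the IgM heavy chain, had 9.602 CPM (median, 1.97 to 677) in Lynfl/fl tumours and 13.1 CPM (median, 2.2003 to 23.1) in Lynwt/wt tumours. Its log2 fold change of 2.49 ± 1.01 was 0.00 without HOM.70, and that of Jchain, which joins IgM chains, was 2.78 ± 1.07 and 0.06. HOM.70 was also the Lynfl/fl tumour with the most Lyn. The part of B cells in the Lyn level of HOM.70 was not tested.

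Lists of other tissues had lower members. Red blood cell genes had 4 of 7 lower and 0 higher (median -0.91). Hbb-bt had 5.59 CPM (median, 2.06 to 14.2) in Lynfl/fl tumours and 12.3 CPM (median, 3.502 to 39.2) in Lynwt/wt tumours (log2 fold change -1.23 ± 0.39), and the other lower members were Hba-a2, Hbb-bs and Hba-a1. These globin genes are near-identical in pairs, so the split of reads between them is uncertain. Skeletal muscle genes had 5 of 7 lower (median -3.38), with a summed level of 9.13 CPM (median, 3.65 to 324) in Lynfl/fl tumours and 16.7 CPM (median, 1.68 to 3689.7) in Lynwt/wt tumours, WT.40 being highest. Myh2, a fast muscle myosin, was at most 2.68 CPM in Lynfl/fl tumours and reached 62.3 CPM in WT.39 (log2 fold change -4.78 ± 1.46). Mylpf and Tnni2, also of fast muscle, had medians of 1.24 and 1.43 CPM in Lynfl/fl tumours and 2.28 and 2.14 CPM in Lynwt/wt tumours. Of the 3 salivary gland genes tested 2 were lower (median -1.82), which were Amy1 (at most 6.11 CPM in Lynfl/fl tumours and 45.3 CPM in WT.60) and Dcpp1 (at most 5.33 CPM in Lynfl/fl tumours and 53.8 CPM in WT.59). Amy1 had a log2 fold change of -1.82 ± 0.81, which was -0.44 without WT.60, and Dcpp1 one of -3.37 ± 1.59, which was -1.58 without WT.59. The part of neighbouring tissue in other results was not tested.

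**Figure D5:**
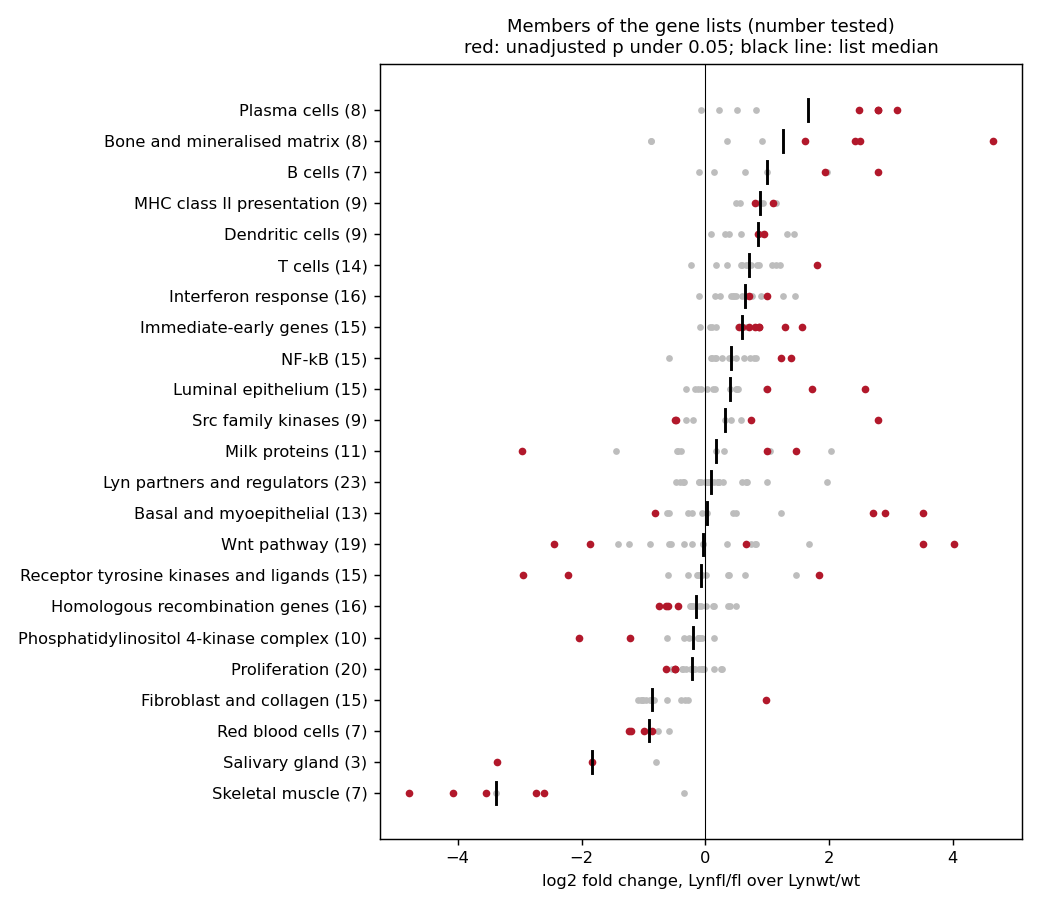
Log2 fold change, Lynfl/fl over Lynwt/wt, of each tested member of 23 gene lists (number tested in brackets), with members at an unadjusted edgeR p under 0.05 in red and the list median as a black line. Skeletal muscle has the lowest median (-3.38) and plasma cells the highest (1.65), and no member passed the adjusted test.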

How the data were processed

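RNAseq libraries of mammary tumours (polyA-selected, stranded, paired-end) had been trimmed with fastp, aligned to GRCm38 with STAR 2.5.1b and counted per gene with featureCounts 1.5.1 against GENCODE vM17 by the authors. The deposited counts of 53715 genes in 39 tumours were used as raw counts per gene. Of the counts from 1 to 10, 79.8% were even, and of those from 101 to 1000, 62.3%, so the mates of a read pair may often have been counted separately, and the total counts would then exceed the number of fragments. The 39 normalised columns and the authors' comparison columns, which hold fold changes and p-values, were not used. The 27 symbols that had turned into dates were restored from the gene IDs, and gene positions came from GENCODE vM21 (GRCm38), which held 53620 of the IDs.

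The members and the gene lists were chosen with earlier results of these data known. Tumours were grouped by the genotype in their labels. The 12 Lynfl/fl and 9 Lynwt/wt tumours of PCA group 1/2 were compared with the quasi-likelihood F test of edgeR 4.0.16 (filterByExpr, TMM, R 4.3.3) with Benjamini-Hochberg adjustment over the 18184 genes tested. A call needed an adjusted p under 0.05 and a 2-fold difference. The fit was tested on simulated counts. Levels are CPM scaled with TMM over all 39 tumours. Chromosome levels used the 10342 genes with a mean log2 CPM over 3 and exact permutation tests over tumours or mice, adjusted over 20 chromosomes. Tumours of a mouse entered as separate samples, so p-values over tumours treat them as independent. The correlation between tumours of a mouse was 0.0236 over genes in limma 3.58.1, an estimate that rests on only 5 mice with 2 tumours each. Alternatives were DESeq2 1.42.0, limma-voom with the mouse as a random effect, other scalings and filters, counts summed per mouse, autopsy year, added tumours and each tumour left out. An adjusted p under 0.1, the chromosome tests and leaving out the 3 tumours apart on the second component were chosen after the data were seen.

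Genes were named by a rule: Lyn, Brca1, Trp53 and 10 genes chosen from earlier results of these data, then called genes, then the genes of smallest p until each direction had 10, and at most 3 genes (by p) from every list described. Other names are said to have been chosen after their values were seen or complete a count. The values of 1 gene that this rule names are not reported here.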

Additional observations from a re-analysis of the deposited data

Results flagged for a closer look

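In groups of 4 to 10 tumours, 82 sets of levels were searched for a tumour far from the rest (Dixon's test on log2 values of CPM + 0.1 for genes). In 9 (11%) the highest or lowest tumour stood apart. Chance gives about 1 in 20 groups for sets that are independent and unselected. These sets share tumours, and genes among them were named by their values in the same tumours. The share of 11% therefore cannot be set against that rate. Among Lynwt/wt tumours, WT.40 was far above the others for Hif3a (71.7 CPM) and far below them for Fcgbp (0.409 CPM), WT.41 was far above for Capns2 (104 CPM), and WT.01 for Csmd1 (1.89 CPM). Among Lynfl/wt tumours, HET.63 was far above for Mcoln3 (189 CPM), HET.48 for Ralgapa2 (76.7 CPM) and HET.29 for Bglap3 (582 CPM). In chromosome levels, WT.60 was far below the other Lynwt/wt tumours for chromosome 3 (-0.61) and WT.59 far above them for chromosome 10 (0.31). The group of 12 Lynfl/fl tumours was too large for this search.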

How the results depend on the processing

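No paired analysis was possible because the genotype was that of the mouse, so no mouse gave tumours of both genotypes. Against 0 genes called higher and 0 lower by edgeR, DESeq2 called 136 higher and 166 lower, the Lynfl/wt tumours in the fit gave 3 and 11, all 39 tumours with a PCA term 12 and 25, an adjusted p under 0.1 with no fold threshold (chosen after the data were seen) 14 and 21 (0 to 106 in all with 1 tumour left out), and counts summed per mouse 1 lower. Leaving out 1 tumour at a time gave 0 to 3 lower calls. At an unadjusted p under 0.05, against 688 higher and 1477 lower, DESeq2 gave 1127 higher, no low-count filter 2448 and 3711, tumours of year 20 alone 396 and 480, and limma-voom 929 lower. DESeq2 and the edgeR fit without a filter each gave a p for 36874 genes, against 18184 in the main test, so their counts cover more genes. The fit of year 20 held 7 tumours. Causes were not tested further. The log2 fold change of Lyn turned to 0.069 in tumours of year 20. The log2 fold change of Trp53 turned positive with upper-quartile scaling (0.00926), a stricter filter (0.00050), counts summed per mouse (0.049), tumours of year 20 (0.31) and without WT.41, WT.42 and WT.59 (0.056), and lay between -0.10 and 0.056 with 1 tumour left out. In tumours of year 20 the sign also turned for Capns2 (0.090), Mcoln3 (0.028), Bglap3 (0.56), Esr1 (-0.0504) and Btn1a1 (1.46, and 0.63 without the 3 tumours apart), and in those of year 21 for Mylk (0.048) and Met (0.54). DESeq2 turned Met (0.095) and Ighm (-0.019), and the 25 tumours of both PCA groups turned Rspo1 (-2.58), Icam1 (-0.44) and Nfkb2 (-0.26). With 1 tumour left out, Met lay between -2.63 and 0.55 and Cd79a between -0.64 and 2.72. Chromosome medians of 2, 8, 12 and 16 kept their sign in every setting run for them, and the call for chromosome 2 was lost without WT.60 and without WT.41, WT.42 and WT.59. Depth was close between genotypes. On simulated counts the test recovered 26% of 2-fold and 82% of 4-fold changes.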

Other observations

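Lists not described gene by gene in the report held few members past an unadjusted p under 0.05. In these 16 lists 7 of 176 members tested were higher and 10 lower in Lynfl/fl tumours, with list medians from -0.91 (Schwann cells and nerve) to 0.76 (NK and cytotoxic cells). Over all 18184 genes tested 3.78% were higher and 8.12% lower, so these lists held no clear excess. The genes given here were chosen after their values were seen, and no edgeR adjusted p was under 0.05. Fas, a death receptor and p53 target, had a log2 fold change of 1.15 ± 0.34 (edgeR adjusted p = 0.165), and no other of 15 p53 targets passed the unadjusted threshold. Cd14, the macrophage co-receptor for lipopolysaccharide, had 1.59 ± 0.45 (edgeR adjusted p = 0.163), the only one of 14 macrophage genes past it. Prf1, the perforin of cytotoxic lymphocytes, had 2.57 ± 0.94 (edgeR adjusted p = 0.259), the only one of 7 NK and cytotoxic genes past it. Of these 7 genes 5 were positive and 2 negative, Gzmb among the negative ones at -1.22. Their summed level had a median of 3.22 CPM in Lynfl/fl tumours and 4.09 CPM in Lynwt/wt tumours. Ngfr, a neurotrophin receptor of Schwann and basal cells, had -3.999 ± 1.301 (edgeR adjusted p = 0.206). All 10 endothelial genes had a negative log2 fold change (median -0.44), with 0 past the unadjusted threshold. In the circadian clock list the members past it were Npas2 at 1.75, Hlf at -1.30 and Cry2 at -0.78. In the hypoxia and glycolysis list they were Ldha, lactate dehydrogenase A, at 0.51, Ankrd37 at 1.05, Hif1a at -0.58 and Hif3a at -6.75 (-1.73 without WT.40).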
